A study of Rattus norvegicus with 20 samples.

Results

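Collagens and the enzymes that cross-link, cut and protect them were compared between the olfactory and the respiratory lining of the rat nose. The members are the genes measured by a probe set with a single annotated symbol for a collagen chain, a matrix metalloproteinase (Mmp), a tissue inhibitor of metalloproteinases (Timp), an Adamts protease, an Adamts-like protein or a lysyl oxidase (Lox or Loxl), each represented by its brightest probe set. They number 82 of the 14217 genes named on the array: 41 collagen chains, 17 Mmp genes, 4 Timp genes, 12 Adamts genes, 4 Adamtsl genes and 4 lysyl oxidases. RNA came from untreated Sprague-Dawley (CD) rats aged 11, 13 or 14 weeks, and males gave 6 olfactory and 6 respiratory arrays and females 2 olfactory and 6 respiratory arrays, with 1 array per tissue and rat. The tissue was removed by hand from the septum and turbinates, kept in RNA Later and not sorted, and an array can hold stroma, vessels and blood cells beside the epithelium; no label tells of pooled animals. The arrays came from 13 rats, 7 males and 6 females, and both tissues were measured in 5 of the males and 2 of the females.

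Collagens are triple-helical proteins of the extracellular matrix. Fibril-forming chains give tissue its tensile strength, type IV chains make the sheet of the basement membrane, and type VI chains make beaded filaments around cells. Lysyl oxidases cross-link collagen outside the cell, metalloproteinases and Adamts proteases cut matrix proteins, and the Timp proteins block metalloproteinases. In the nose this matrix lies under the epithelium, in the lamina propria, which in olfactory mucosa also carries the bundles of olfactory axons with their ensheathing glia.

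The values are array signals, linear and scaled by the authors to a common level. Changes are log2 differences of group means after adding 16, with the standard error (SE) of the fit, and a gene is said to have risen or fallen where limma's p, adjusted by Benjamini-Hochberg over all 31042 probe sets, is under 0.05. Array medians lay between 134 and 192, and the background, set on each array at the 95th percentile of 27 control probe sets for bacterial genes, lay between 28.2 and 64.9. Of the members, 43 were above background on all 20 arrays and 1, Col4a4, on none. Markers of olfactory neurons fitted the labels, since 8 of 8 were higher in male olfactory arrays, with summed signals of 66857 to 86537 in male olfactory, 4154 to 18979 in male respiratory, 84207 to 90550 in female olfactory and 5148 to 29144 in female respiratory arrays. Neuronal signal was therefore also present in respiratory arrays. The arrays of female respiratory rat 8 and male respiratory rat 7 stood apart on the second principal component of all probe sets, at -113.3 and -97.5. Male olfactory arrays also spread on it. They lay at 40.6, 84.4 and 72.3 in rats 1, 2 and 3, aged 11 weeks. Rats 4, 7 and 10, aged 13 or 14 weeks, lay at -24.3, 4 and -68.1. The part of age in this spread was not tested. In olfactory samples the RNA integrity number was lower, at 8.2 to 8.8 in males and 8.3 in both females, against 9.1 to 9.3 in male and 8.7 to 9.3 in female respiratory samples.

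In male rats 32 of the 82 members differed between the tissues: 6 rose and 26 fell in olfactory relative to respiratory mucosa. Among all named genes 14% rose and 17.8% fell. The median change of the members was -0.32 and that of all named genes -0.05. Arrays of the tissues did not overlap at all for 4 members that were higher and 16 that were lower in male olfactory mucosa, while among all named genes 7.54% were non-overlapping and higher and 10.2% non-overlapping and lower. When each array was centred on its median, 7 members rose and 20 fell. With this integrity number added to the fit, over the arrays that have one, 12 of the 32 members were called, 2 higher and 10 lower, against 32 called over these arrays without the covariate. Those higher were Col9a1 and Mmp16. Those lower were Col3a1, Col4a5, Col5a2, Col6a3, Col6a5, Col13a1, Mmp2, Mmp9, Timp2 and Adamtsl5. Calls lost included Mmp3, Mmp8, Mmp12, Col17a1, Col27a1, Adamts1, Mmp17 and Timp4. Values of the integrity number did not overlap between the tissues within either sex, so tissue and RNA integrity cannot be told apart here.

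**Figure D1:**
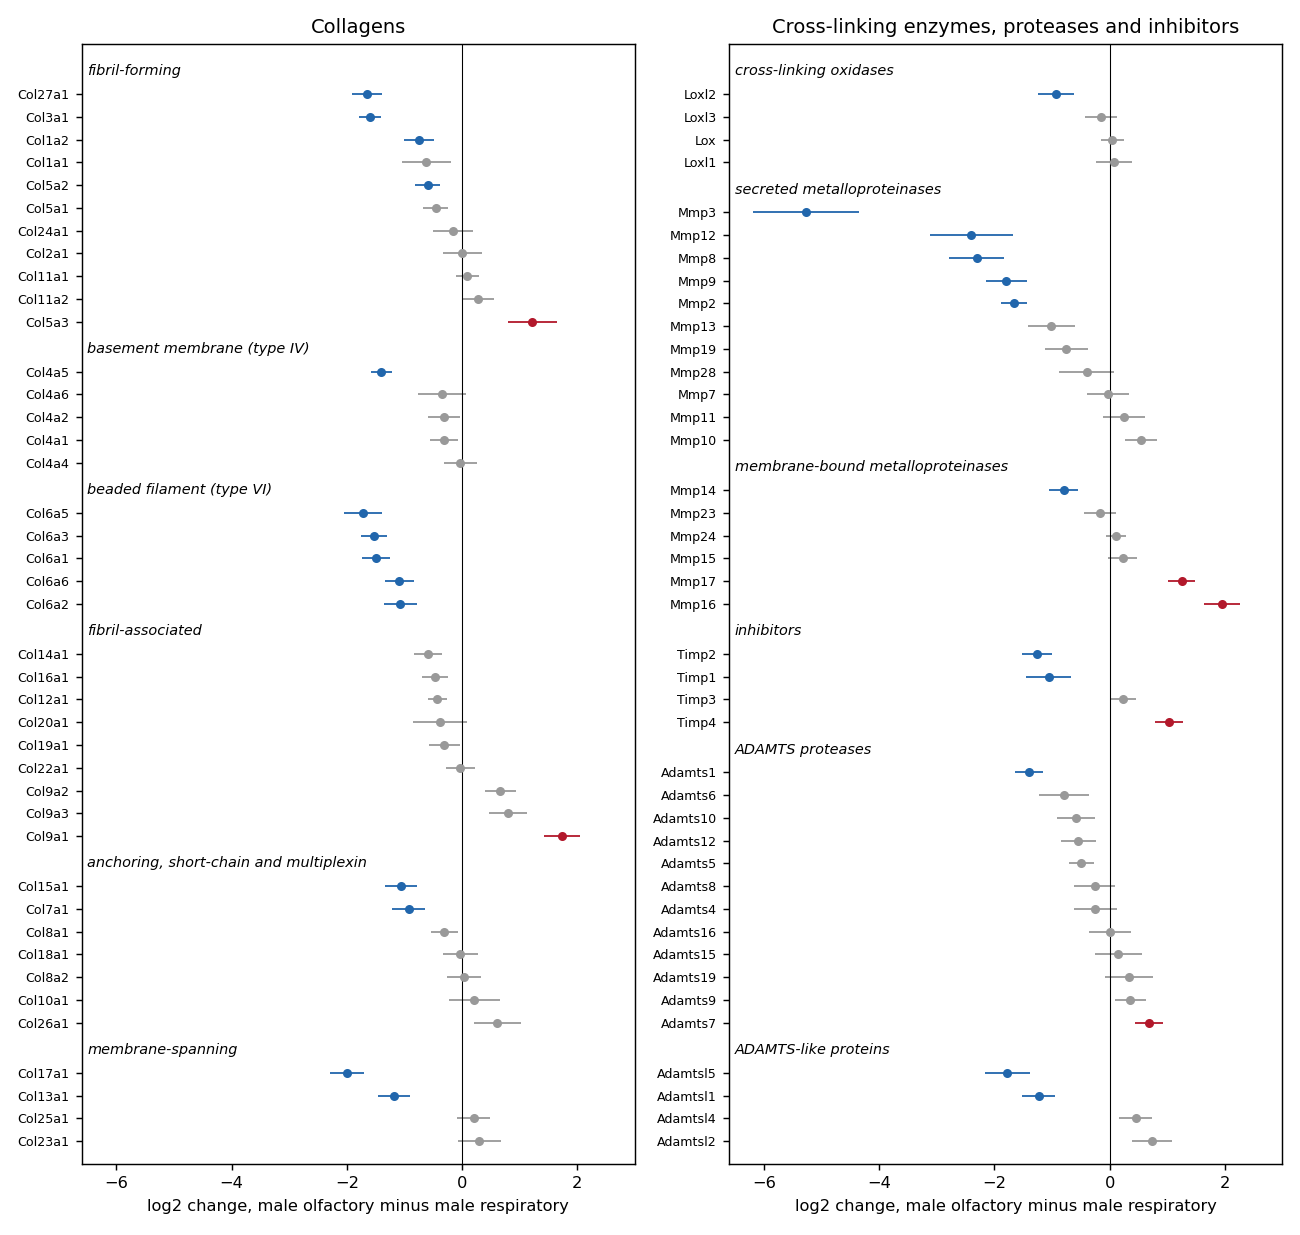
Change in male olfactory relative to male respiratory mucosa (log2, horizontal axis) for each of the 82 members, ordered by size within 12 role classes; points are limma estimates and bars 1 SE. Red points rose, blue points fell and grey points did not pass the test; Mmp3 lies farthest to the left at -5.27, and all 5 type VI chains are blue.

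Among the 11 fibril-forming chains, 4 fell and 1 rose. Col3a1, the chain of type III collagen, a fibril of loose and elastic connective tissue, fell most clearly. Its signal had a lowest value, median and highest value of 1714, 1956 and 2579 in male olfactory arrays, against 4047, 6403 and 7838 in male respiratory arrays. The groups did not overlap, and the change was -1.60 (SE 0.19, adjusted p = 1.35e-06, n = 6 each), a 3.03-fold lower level. All 5 males with both tissues had the lower value in olfactory mucosa.

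Col27a1, a fibrillar chain best known from cartilage, was at background on all 6 male olfactory arrays. It ran from 15.3 to 30.3 with a median of 23.7 in male olfactory arrays, against 60.7 to 138 with a median of 124 in male respiratory arrays, where all 6 were above background. Its level was at least 2.07-fold lower (adjusted p = 3.18e-05). Of 9 cartilage markers, 3 were lower and none higher, and their summed signal was 655 to 1132 in male olfactory, 1561 to 2606 in male respiratory, 770 to 843 in female olfactory and 1298 to 3349 in female respiratory arrays, with none of them at background on every array. Their part in the result was not tested.

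The 2 chains of type I collagen, the main fibril of bone, tendon and dermis, had overlapping groups. Col1a2, the member with the highest mean in this class, ran from 3660 to 8153 with a median of 5929 in male olfactory arrays, against 5734 to 15533 with a median of 10315 in male respiratory arrays, and its change was -0.75 (SE 0.26, adjusted p = 0.04). The other probe set of Col1a2 did not pass (change -0.71, adjusted p = 0.0566). The call was also lost with quantile normalization (adjusted p = 0.0653), with arrays centred on their medians (adjusted p = 0.0704) and without the intensity trend (adjusted p = 0.0536). Col1a1, the partner chain of Col1a2, had a change of -0.62 (SE 0.43, adjusted p = 0.33), with male respiratory signals from 2729 to 10682. The type V chain Col5a2, which joins type I collagen in mixed fibrils, fell by 0.60 (SE 0.22, adjusted p = 0.0456). This call was lost with arrays centred on their medians (adjusted p = 0.147) and without the intensity trend (adjusted p = 0.0669). Its relative Col5a3 was the member of the class that rose, by 1.22 (SE 0.42, adjusted p = 0.0366), but Col5a3 was at background on all male respiratory arrays and above it on 2 of 6 male olfactory arrays, so no fold is given, and it did not pass with the animal as a fixed block (change 0.90, adjusted p = 0.193). The cartilage chains Col2a1, Col11a1 and Col11a2, with Col24a1 and Col5a1, did not pass, with changes of -0.46 to 0.27. The other probe set of Col5a1, a type V chain, did pass (change -1.06, adjusted p = 0.00723).

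All 5 measured type VI chains fell in males, with a median change of -1.50. Col6a1, Col6a2 and Col6a3 form the classical type VI molecule, and Col6a5 and Col6a6 are chains related to Col6a3. Col6a3, the brightest, had 293, 327 and 422 as its lowest, median and highest signal in male olfactory arrays, against 618, 1152 and 1448 in male respiratory arrays, without overlap (change -1.53, SE 0.22, adjusted p = 1.11e-05). Col6a1 ran from 215 to 391 with a median of 331 in male olfactory arrays, against 582 to 1159 with a median of 976 in male respiratory arrays, again without overlap (change -1.50, SE 0.24, adjusted p = 3.95e-05). Both were lower in olfactory mucosa in 5 of 5 males and 2 of 2 females measured in both tissues.

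Changes of the other type VI chains were -1.07 for Col6a2, -1.72 for Col6a5 and -1.09 for Col6a6. Of these, Col6a6 had arrays that did not overlap between the tissues. The call on Col6a2 was lost when the mean of its probe sets was used (adjusted p = 0.0763), because its other probe set changed by -0.30, and the other probe set of Col6a3 changed by -0.65 (adjusted p = 0.126). Type VI chains and Col3a1 are made by fibroblasts in many tissues. Of 10 fibroblast markers, 5 were lower and 1 higher in male olfactory arrays, and their summed signal was 10581 to 19011 in male olfactory, 16720 to 22104 in male respiratory, 12653 to 13222 in female olfactory and 18343 to 32170 in female respiratory arrays, with none at background throughout. Their part in these results was not tested, and in whole tissue fewer cells of a type and less RNA per cell cannot be told apart.

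**Figure D2:**
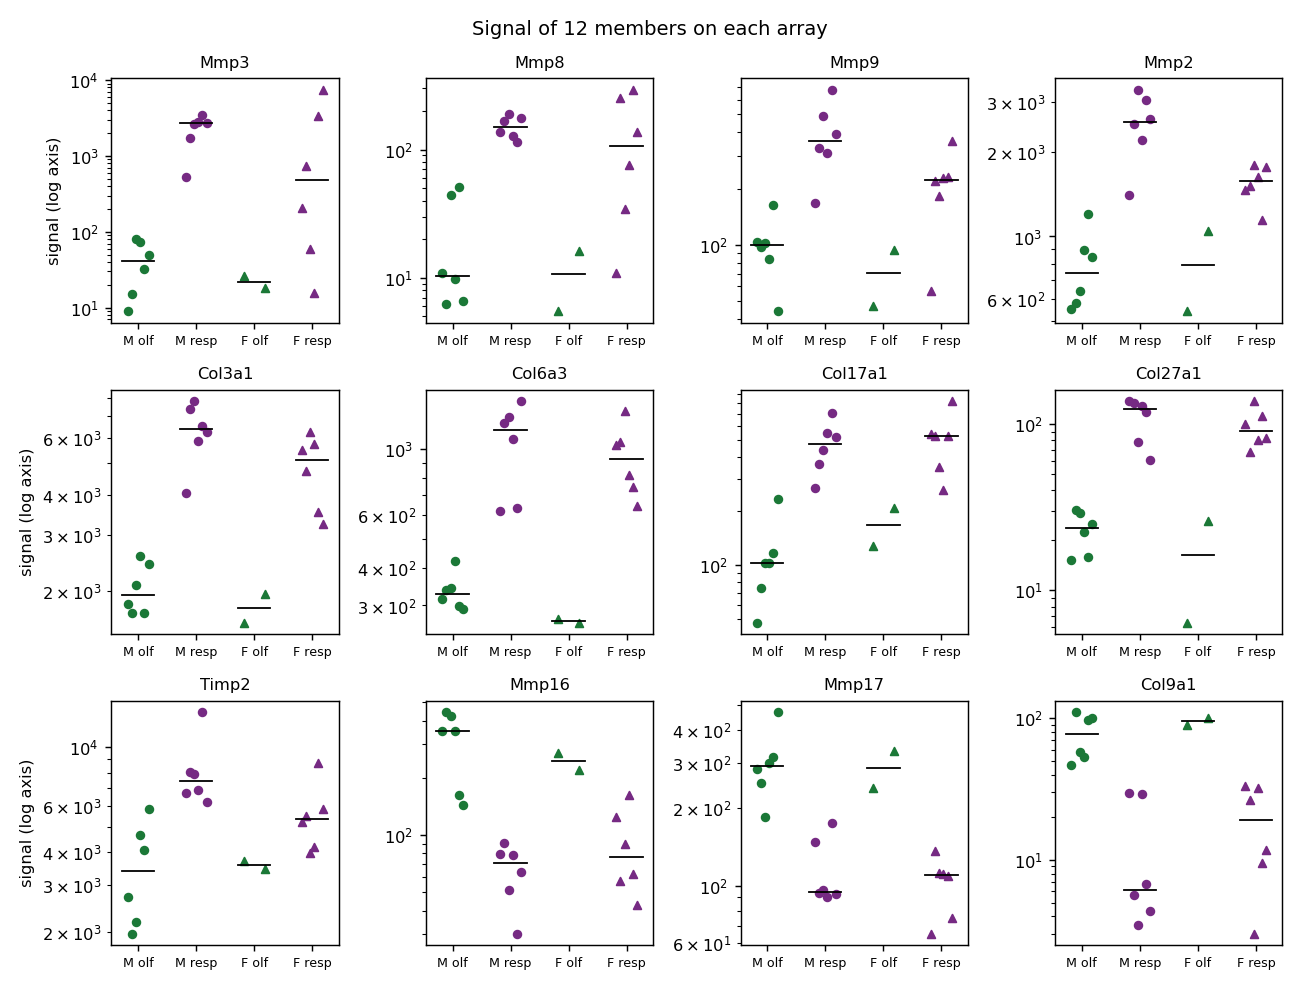
Signal (log axis, own scale per panel) of 12 members on each array; M is male, F female, olf olfactory (green) and resp respiratory (purple), and the black line is the group median. Col3a1 has all 6 male olfactory arrays at or under 2579 and all 6 male respiratory arrays at or over 4047, while Mmp16, Mmp17 and Col9a1 are higher in olfactory arrays.

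Of the 5 type IV chains measured, Col4a5 fell. This chain of the basement membrane network, mutated in Alport syndrome in humans, had signals of 249 to 551 with a median of 340 in male olfactory arrays, against 903 to 1090 with a median of 993 in male respiratory arrays. No olfactory array reached the respiratory range (change -1.40, SE 0.18, adjusted p = 3.8e-06). Col4a1 and Col4a2, the chains of the common type IV molecule, had changes of -0.31 and -0.32 with adjusted p of 0.381 and 0.459. Col4a6 did not pass either, and Col4a4 was at background on every array.

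Among the membrane-spanning collagens 2 of 4 fell. Col17a1, the collagen of hemidesmosomes that ties basal epithelial cells to the basement membrane, had 47.6, 102 and 232 as lowest, median and highest signal in male olfactory arrays, against 270, 476 and 704 in male respiratory arrays. The groups did not overlap (change -2.00, SE 0.30, adjusted p = 2.8e-05), which is a 3.99-fold lower level. Col13a1, a cell-surface collagen found at adhesion sites, fell by 1.18 (SE 0.28, adjusted p = 0.00264), and Col23a1 and Col25a1 did not pass.

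Basal epithelium markers moved with Col17a1: 4 of 5 were lower, with summed signals of 3018 to 10864 in male olfactory, 20153 to 66271 in male respiratory, 5512 to 8574 in female olfactory and 26270 to 32743 in female respiratory arrays, and none was at background throughout. Their part in the result was not tested.

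Of 7 anchoring, short-chain and multiplexin collagens, 2 fell. Col7a1 builds the anchoring fibrils below the epithelium and Col15a1 is a proteoglycan of basement membrane zones. Col7a1 fell by 0.93 (SE 0.29, adjusted p = 0.0201) and Col15a1 by 1.06 (SE 0.28, adjusted p = 0.00623). Their ranges overlapped between the tissues: Col15a1 spanned 128 to 319 in male olfactory and 297 to 533 in male respiratory arrays. Col8a2, the brightest of the class and a short-chain collagen of endothelial basement membranes, ran from 478 to 1799 with a median of 879 in male olfactory arrays, against 654 to 1989 with a median of 781 in male respiratory arrays, and its change was 0.03 (SE 0.30, adjusted p = 0.967).

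Of 9 fibril-associated collagens, which bind the surface of fibrils, only Col9a1 passed the test in males, and it rose. It was measured at 46.7 to 111 with a median of 77.5 in male olfactory arrays, against 3.47 to 29.7 with a median of 6.18 in male respiratory arrays, where no array was above background. The level was at least 1.42-fold higher in male olfactory arrays (adjusted p = 0.000168). Type IX collagen is best known from cartilage. Of the 9 cartilage markers 0 were higher and 3 lower in male olfactory arrays, with a median change of -0.1. Their part in the result was not tested. Col9a2 and Col9a3, which join Col9a1 in type IX collagen, had changes of 0.66 (adjusted p = 0.0729) and 0.80 (adjusted p = 0.0849). Both were higher in olfactory mucosa in 5 of 5 males. Col16a1, the brightest of this class, ran from 245 to 761 with a median of 451 in male olfactory arrays, against 432 to 894 with a median of 617 in male respiratory arrays (change -0.47, SE 0.22, adjusted p = 0.132). It passed with the animal as a fixed block (change -0.58, adjusted p = 0.0369), without male olfactory rat 10 (change -0.62, adjusted p = 0.0351) and over the males aged 11 weeks (change -0.72, adjusted p = 0.0412). Col12a1 did not overlap between the tissues in males, at 360 to 459 in olfactory and 461 to 724 in respiratory arrays, yet missed the threshold at 0.0525.

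Of the 4 lysyl oxidases Loxl2 fell, by 0.93 (SE 0.31, adjusted p = 0.0295), though not with the animal as a fixed block (change -0.79, adjusted p = 0.105). Lox, the founding enzyme of the family, had a change of 0.05 (SE 0.20, adjusted p = 0.896). Loxl1, the brightest and known for its role in elastic fibres, ran from 418 to 1480 with a median of 722 in male olfactory arrays, against 542 to 1698 with a median of 655 in male respiratory arrays, and changed by 0.08 (SE 0.31, adjusted p = 0.898).

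Of the 11 secreted metalloproteinases 5 fell and none rose. Of these 11, 6 lie in 1 run of metalloproteinase genes on rat chromosome 8, in the order Mmp13, Mmp12, Mmp3, Mmp10, Mmp8 and Mmp7. Sequences 100 bases long directly before the RefSeq starts of these genes (GRCr8, plus strand) are printed because 3 of the 5 genes that fell, Mmp3, Mmp12 and Mmp8, are in this run beside 2 that were dim throughout, Mmp10 and Mmp7. Capitals mark AP-1 matches (TGANTCA) and TATA matches (TATAAA, which reads as TTTATA on the other strand).
Mmp3 (chr8:12925181-12925280): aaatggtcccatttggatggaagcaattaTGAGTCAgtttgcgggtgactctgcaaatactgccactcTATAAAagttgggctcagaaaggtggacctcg
Mmp12 (chr8:12866552-12866651): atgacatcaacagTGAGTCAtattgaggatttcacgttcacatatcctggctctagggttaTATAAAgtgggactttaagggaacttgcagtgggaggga
Mmp8 (chr8:13008790-13008889): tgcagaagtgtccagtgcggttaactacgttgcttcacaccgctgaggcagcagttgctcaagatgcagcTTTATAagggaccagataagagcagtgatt
Mmp13 (chr8:12782729-12782828): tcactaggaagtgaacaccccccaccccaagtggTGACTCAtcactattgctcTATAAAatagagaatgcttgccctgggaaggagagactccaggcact
Mmp10 (chr8:12974607-12974706): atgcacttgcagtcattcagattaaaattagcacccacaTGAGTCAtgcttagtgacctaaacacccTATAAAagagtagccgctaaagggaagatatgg
Mmp7 (chr8:13132943-13133042): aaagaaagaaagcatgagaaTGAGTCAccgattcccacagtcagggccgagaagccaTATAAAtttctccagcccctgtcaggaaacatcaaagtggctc

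AP-1 is a dimer of the Fos and Jun families and a well known regulator of these promoters. In the 250 bases before the start and on both strands, 5 of the 8 secreted metalloproteinase promoters held an AP-1 match (62.5%) and 6 held a TATA match (75%), against 6.36% and 13.1% of all 27457 promoters searched. The collagens differed from this, with an AP-1 match in 1 of 32 promoters (3.12%) and a GC box (GGGCGG) in 18 of 32 (56.2%), where 32.4% of all promoters have one. Matches were present in genes that fell and in genes that did not: the windows of Mmp13, Mmp10 and Mmp7 hold both motifs, and that of Mmp8 has no AP-1 match. Promoters were available for 60 of the 82 members, and a match is a description of the letters, not of factor binding.

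Mmp3, stromelysin-1, which cuts proteoglycans and activates other metalloproteinases, had the largest fitted change of any member. Its male olfactory signals were 8.89 at the lowest, 40.6 at the median and 80.6 at the highest, against 534, 2683 and 3462 in male respiratory arrays. No olfactory array came near the respiratory range, and only 2 of the 6 were above background (change -5.27, SE 0.92, adjusted p = 0.000132). Since most of these arrays were at background, the size depends on the number added before the log2, with -5.87 when 1 was added and -4.33 when 64 was added, and the call held with both. In the 5 males with both tissues the difference within a rat was -4.47, -5.83, -4.80, -4.98 and -6.16.

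Mmp12, the macrophage elastase, overlapped between the tissues. It ran from 175 to 1148 with a median of 340 in male olfactory arrays, against 745 to 4147 with a median of 2432 in male respiratory arrays (change -2.40, SE 0.72, adjusted p = 0.0157). Mmp8, the neutrophil collagenase, had 6.23, 10.3 and 50.6 as lowest, median and highest signal in male olfactory arrays, against 115, 151 and 190 in male respiratory arrays, without overlap (change -2.31, SE 0.47, adjusted p = 0.000682). It was above background on 1 of 6 male olfactory and on 6 of 6 male respiratory arrays, and its change was -3.24 when 1 was added and -1.36 when 64 was added, with the call kept.

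The gelatinases, which cut denatured and type IV collagen, both fell. Mmp9 ran from 44 to 164 with a median of 99.9 in male olfactory arrays, against 167 to 679 with a median of 362 in male respiratory arrays, and the ranges just failed to meet (change -1.79, SE 0.36, adjusted p = 0.000546). Mmp2 ran from 553 to 1200 with a median of 744 in male olfactory arrays, against 1402 to 3321 with a median of 2555 in male respiratory arrays, without overlap (change -1.66, SE 0.22, adjusted p = 5.57e-06). The second probe set of Mmp2 changed by 0.01 (adjusted p = 0.981), so the call rests on the brighter one.

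Mmp13, the interstitial collagenase of rodents, was the brightest of the class. Its signals ran from 561 to 2530 with a median of 1456 in male olfactory arrays, against 1032 to 4571 with a median of 3206 in male respiratory arrays (change -1.01, SE 0.41, adjusted p = 0.0732). It passed without male respiratory rat 7 (change -1.28, adjusted p = 0.0177), without male olfactory rat 4 (change -1.21, adjusted p = 0.0402), without both arrays that stand apart (change -1.28, adjusted p = 0.013), with the animal as a fixed block (change -0.91, adjusted p = 0.0241) and over the arrays with an RNA integrity number (change -1.72, adjusted p = 0.00303). Mmp7, Mmp10, Mmp11, Mmp19 and Mmp28 did not pass in males, with changes of -0.75 to 0.55, and Mmp10 was above background on none of the male arrays.

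Leukocyte markers were lower beside these enzymes in 8 of 9 cases, among them Ptprc by 2.94 and S100a9 by 2.27 on the log2 scale. Their summed signal was 1383 to 2501 in male olfactory, 5154 to 18200 in male respiratory, 1583 to 1939 in female olfactory and 2715 to 44082 in female respiratory arrays, and none was at background throughout. Osteoclasts are another known source of Mmp9, and their markers were lower in 2 of 3 cases, with sums of 1181 to 3465 in male olfactory, 4682 to 9950 in male respiratory, 1556 to 1633 in female olfactory and 3062 to 7299 in female respiratory arrays. The part of both lists in the results was not tested.

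Membrane-bound metalloproteinases went in both directions, with 2 of 6 higher and 1 lower. Mmp16, a membrane-type enzyme that activates Mmp2, ran from 144 to 445 with a median of 353 in male olfactory arrays, against 30.2 to 91 with a median of 71.4 in male respiratory arrays. No arrays overlapped, and the level was 3.85-fold higher (change 1.95, SE 0.32, adjusted p = 7.72e-05). Mmp17, which is held in the membrane by a lipid anchor, ran from 185 to 472 with a median of 291 in male olfactory arrays, against 90.1 to 175 with a median of 94.7 in male respiratory arrays, also without overlap (change 1.25, SE 0.24, adjusted p = 0.000433).

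Mmp14, the main membrane-type activator of Mmp2, fell by 0.80 (SE 0.26, adjusted p = 0.0268), with overlapping ranges. Mmp15, the brightest of the class, ran from 712 to 2215 with a median of 1156 in male olfactory arrays, against 729 to 1396 with a median of 860 in male respiratory arrays (change 0.23, SE 0.25, adjusted p = 0.558). Mmp23 and Mmp24 did not pass, with changes of -0.17 and 0.11.

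Of the 4 inhibitors 2 fell and 1 rose. Timp2, the brightest and a partner of Mmp14 in activating Mmp2, ran from 1965 to 5801 with a median of 3379 in male olfactory arrays, against 6193 to 13584 with a median of 7405 in male respiratory arrays, without overlap (change -1.26, SE 0.26, adjusted p = 0.000685). Its other probe set changed by -0.62 (adjusted p = 0.148). Timp1, a secreted inhibitor of broad reach, fell by 1.06 (SE 0.39, adjusted p = 0.0486). The call on Timp1 was lost with arrays centred on their medians (adjusted p = 0.113) and without the intensity trend (adjusted p = 0.0637). It was also lost over the arrays with an RNA integrity number (adjusted p = 0.149). Timp4 rose by 1.03 (SE 0.24, adjusted p = 0.00236), with signals of 445 to 1080 in male olfactory against 209 to 463 in male respiratory arrays, and Timp3, which stays bound to the matrix, did not pass (change 0.24, adjusted p = 0.476).

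Of 12 Adamts proteases 1 rose and 1 fell. Adamts1, which cuts the proteoglycans aggrecan and versican, had 143, 233 and 303 as lowest, median and highest signal in male olfactory arrays, against 447, 562 and 926 in male respiratory arrays, without overlap (change -1.40, SE 0.24, adjusted p = 0.000132). Adamts7, a protease whose substrates include the cartilage protein Comp, ran from 226 to 375 with a median of 298 in male olfactory arrays, against 157 to 223 with a median of 180 in male respiratory arrays (change 0.68, SE 0.24, adjusted p = 0.0419). The brightest, Adamts15, ran from 327 to 486 with a median of 405 in male olfactory arrays, against 222 to 751 with a median of 330 in male respiratory arrays (change 0.15, SE 0.41, adjusted p = 0.847), and it passed over the males aged 11 weeks (change 0.70, adjusted p = 0.0223). The other probe set of Adamts5, which cuts aggrecan, fell (change -1.49, adjusted p = 0.026) where the brighter one did not pass (change -0.49, adjusted p = 0.0997).

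Adamts-like proteins share the accessory domains of the proteases and have no catalytic domain. Adamtsl5, which binds microfibrils, ran from 23.6 to 171 with a median of 66.1 in male olfactory arrays, against 185 to 364 with a median of 361 in male respiratory arrays, and the groups did not overlap (change -1.78, SE 0.39, adjusted p = 0.00121). Its other probe set changed by -0.61 (adjusted p = 0.328). Adamtsl1 fell by 1.23 (SE 0.29, adjusted p = 0.00292), with 16.9 to 85.1 in male olfactory against 99.6 to 205 in male respiratory arrays. Adamtsl4, the brightest, ran from 293 to 991 with a median of 628 in male olfactory arrays, against 336 to 471 with a median of 404 in male respiratory arrays and did not pass (change 0.45, adjusted p = 0.272), and neither did Adamtsl2 (change 0.74, adjusted p = 0.131).

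Glial markers were higher beside the 6 members that rose: 5 of 8 Schwann and ensheathing glia markers were higher and 1 was lower. Their summed signal was 8161 to 22332 in male olfactory, 2622 to 5516 in male respiratory, 11667 to 13954 in female olfactory and 1816 to 7479 in female respiratory arrays, with none at background throughout. The part of glia and neurons in these results was not tested.

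Calls on 8 of the 32 members in males ended when 1 array was left out: Col1a2, Col5a2, Col5a3, Col7a1, Loxl2, Mmp14, Timp1 and Adamts7. The highest adjusted p for each was 0.109 for Col1a2, 0.0982 for Col5a2, 0.0691 for Loxl2 without male respiratory rat 2, 0.1 for Col5a3 without male olfactory rat 10, 0.0568 for Col7a1 and 0.0857 for Adamts7 without male olfactory rat 3, 0.0753 for Mmp14 without male olfactory rat 1 and 0.114 for Timp1 without male olfactory rat 2. Each of the 12 male arrays ended between 2 and 7 of these calls. Of these 8, the calls on Col1a2, Col5a2, Col7a1, Loxl2, Mmp14 and Timp1 were also lost with arrays centred on their medians. The other 24 calls held without any 1 of these arrays. With both arrays that stand apart left out, 34 members were called in males, 8 higher and 26 lower, and 30 of them were among the 32.

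Among genes that work with the collagens more fell than rose in males. The same held for all named genes, of which 17.8% fell and 14% rose. Of 20 genes that make and process collagen, 6 fell and 2 rose: Pcolce, an enhancer of procollagen cleavage, fell by 1.14 (SE 0.22, adjusted p = 0.000439), Bmp1, which cuts procollagen, by 1.06 (SE 0.25, adjusted p = 0.00268) and the prolyl hydroxylase subunit P4ha2 by 0.94 (SE 0.19, adjusted p = 0.000644). Of 28 other interstitial matrix genes, 11 fell and 1 rose, led by Ecm1 (-2.94), the matricellular Thbs2 (-2.08) and the TGF-beta binding Ltbp1 (-1.45). Among 16 other basement membrane genes 6 fell and none rose, with the epithelial laminin chains Lamb3 at -2.47 and Lama3 at -2.26 and the broader chain Lamb1 at -1.28. Lama3 was above background on only 2 of 6 male olfactory arrays.

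In the list of collagen receptors and other cell anchors, 9 of 14 were lower and none higher. The largest changes were in Cd44 (-2.80), Itga6 (-2.38), the integrin chain of hemidesmosomes, and Sdc1 (-2.32). Among its receptors for collagen, the integrin chain Itgb1 (-1.55) and Ddr2 (change -0.63, adjusted p = 0.0336) fell. Itga1 (change -0.94, adjusted p = 0.349), Itga11 (change -0.46, adjusted p = 0.234) and Ddr1 (change -0.63, adjusted p = 0.0552) did not pass. Regulators of matrix proteases split, with 8 of 20 lower and 3 higher: the plasminogen activator inhibitor Serpinb2 was at background on all male olfactory arrays and at least 24-fold lower there (adjusted p = 2.88e-07), the plasminogen activator Plau fell (change -3.40), and Spock1, a proteoglycan that inhibits membrane-type metalloproteinases, rose by 3.53 (SE 0.47, adjusted p = 5.58e-06). Spock1 was above background on only 2 of 6 male respiratory arrays, so the size of its change rests in part on values at background. The median change of these lists was -0.28 for collagen making, -0.68 for other interstitial matrix, -0.36 for other basement membrane, -0.87 for receptors and anchors and -0.45 for protease regulators, against -0.05 over all named genes.

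**Figure D3:**
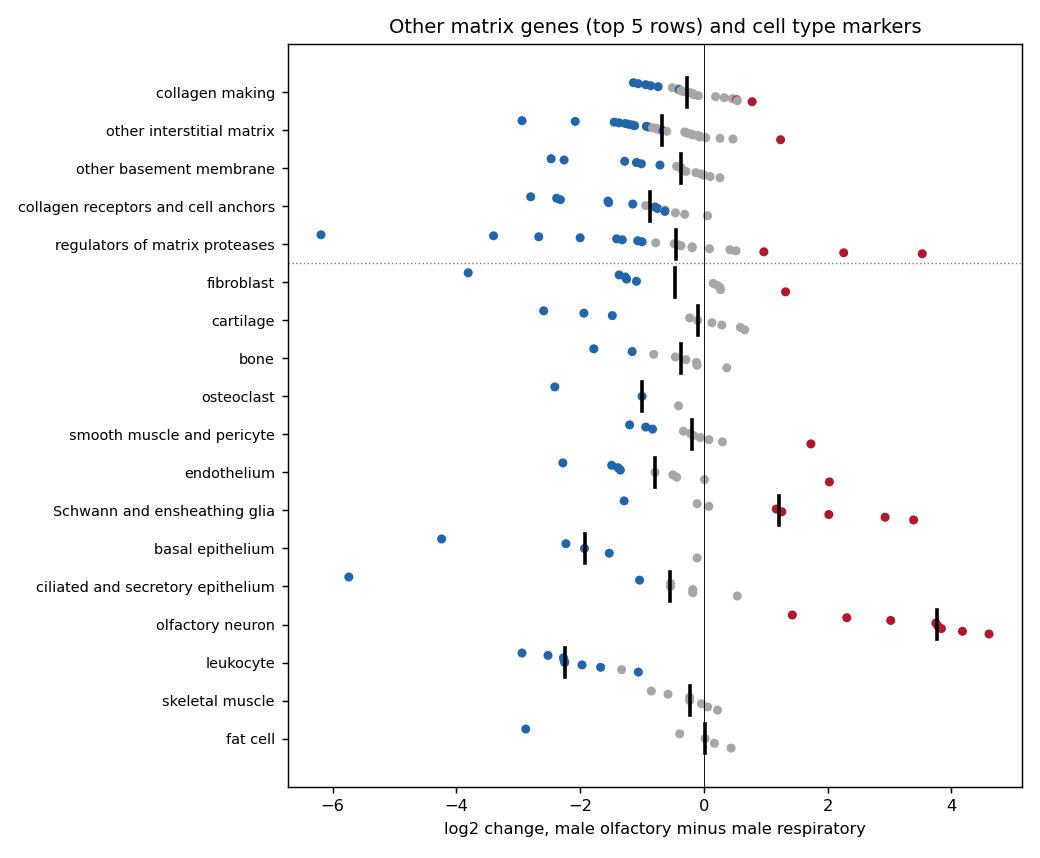
Change in male olfactory relative to male respiratory mucosa (log2, horizontal axis) for each measured gene of 5 lists of other matrix genes (above the dotted line) and 13 lists of cell type markers; red points rose, blue points fell, grey points did not pass, and the black bar is the list median. Olfactory neuron markers lie to the right with a median of 3.76, and leukocyte and basal epithelium markers to the left with medians of -2.25 and -1.93.

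Further marker lists held some calls in males, where 17.8% of all named genes were lower and 14% higher. Endothelial markers were lower in 4 of 9 cases and higher in 1, smooth muscle and pericyte markers lower in 3 of 10 and higher in 1, bone markers lower in 2 of 8 and ciliated and secretory epithelium markers lower in 2 of 7. None of 7 skeletal muscle markers passed, and 1 of 5 fat cell markers was lower.

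In females, with 2 olfactory and 6 respiratory arrays, 19 members passed: 5 rose and 14 fell, where 10.9% of named genes rose and 11.6% fell. Centring each array on its median gave 10 higher and 9 lower. Both sexes shared 17 calls, all in the same direction. Of the 32 members called in males, 31 had the same sign in females, and Col5a3 did not. These counts were not taken over all named genes, so they are not shown to be particular to the members. The 4 type VI chains Col6a1, Col6a3, Col6a5 and Col6a6 fell in females too, by 1.50, 1.71, 2.09 and 1.72, and Col6a2 had a change of -0.61 (adjusted p = 0.319). Col3a1 was 1600 and 1961 in the female olfactory arrays, against 3230 to 6252 with a median of 5125 in the female respiratory arrays (change -1.40, SE 0.27, adjusted p = 0.00101).

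Females also had lower Col17a1 (change -1.45, adjusted p = 0.0218), Adamts1 (change -2.10, SE 0.35, adjusted p = 0.000196) and Mmp2 (change -1.01, adjusted p = 0.0289) in olfactory mucosa. The call on Mmp2 was lost with the mean of its probe sets (change -0.29, adjusted p = 0.474) and when arrays were centred on their medians (change -0.73, adjusted p = 0.135). Mmp16 was 219 and 271 in the female olfactory arrays, against 42.9 to 162 with a median of 76.1 in the female respiratory arrays (change 1.40, SE 0.46, adjusted p = 0.0359). Mmp17, Col9a1 and Timp4 rose as well, by 1.38, 1.74 and 1.16. The calls on these genes and on Mmp16 were each lost when a single female olfactory array was left out. Bounds apply where both female olfactory arrays, or all 6 female respiratory arrays, were at background: Mmp8 was at least 1.67-fold, Col27a1 at least 1.71-fold and Col6a6 at least 1.59-fold lower, and Col9a1 at least 1.88-fold higher, in female olfactory arrays.

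Col12a1 and Mmp11 passed in females and not in males. Mmp11, stromelysin-3, was 163 and 152 in the female olfactory arrays, against 17.9 to 89.5 with a median of 34.7 in the female respiratory arrays, without overlap (change 1.70, SE 0.52, adjusted p = 0.0261). In males its change was 0.25 (adjusted p = 0.682), and the difference between the sexes in this change, 1.44 (SE 0.64), had an adjusted p of 0.924. Col12a1, a fibril-associated collagen of dense connective tissue, was 242 and 250 in the female olfactory arrays, against 360 to 569 with a median of 433 in the female respiratory arrays (change -0.83, SE 0.23, adjusted p = 0.0139). The call was lost with the mean of its probe sets (change -0.33, adjusted p = 0.64), and the difference between the sexes in the tissue change, -0.39 (SE 0.28), had an adjusted p of 0.924.

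Female counts rest on the 2 olfactory arrays: 7 members were called without that of rat 6 and 9 without that of rat 8, and 25 without both arrays that stand apart. Calls on 16 of the 19 members ended when 1 array was left out, and only those on Adamts1, Col3a1 and Col6a3 held. With the animal as a fixed block, over the 2 females with both tissues, 1 member was called and none of the 19, and with the integrity number added to the fit 1 was called, Col6a3.

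**Figure D4:**
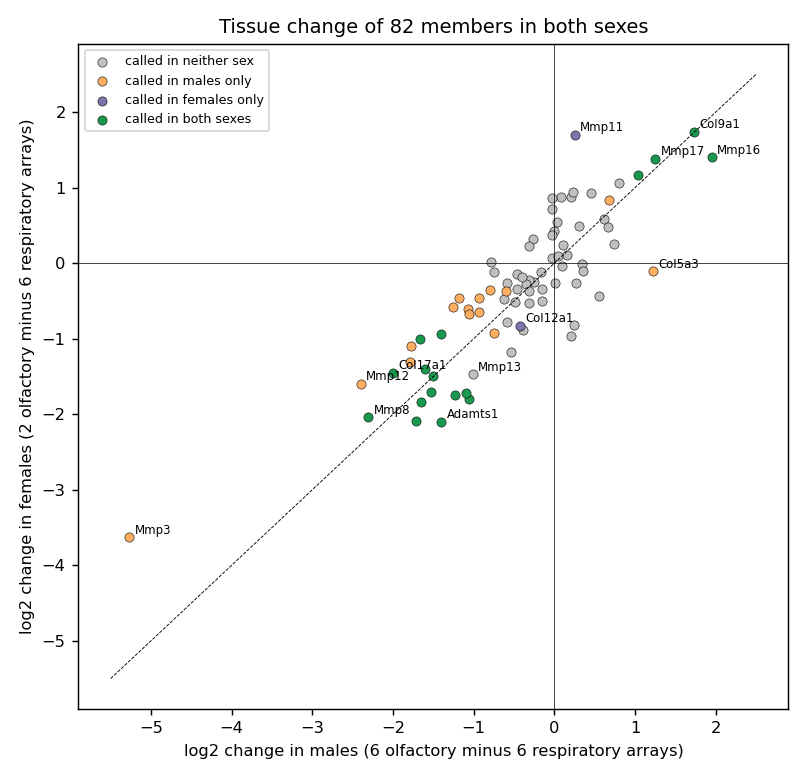
Change in female olfactory relative to female respiratory mucosa (vertical axis, log2) against the same change in males (horizontal axis) for the 82 members; the dashed line marks equal changes and colours show the sex in which a member was called. The 17 members called in both sexes lie in the lower left and upper right, and Col5a3, at 1.22 in males and -0.11 in females, lies near the horizontal zero line.

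No member passed in the comparisons of female with male rats. In respiratory mucosa 8 of 82 had an unadjusted p under 0.05, against 3.57% of named genes, and 0.0141% of named genes passed limma's adjusted test. In olfactory mucosa 5 of 82 had an unadjusted p under 0.05, against 3.91% of named genes, and 0.0211% of named genes passed. For the difference of the tissue changes between the sexes 4 members had an unadjusted p under 0.05, against 3.82%, and 0% of named genes passed. The 8 in respiratory mucosa, Mmp2, Mmp3, Mmp9, Mmp11, Mmp14, Timp2, Col12a1 and Col22a1, all had lower means in females, with changes from -2.12 for Mmp3 to -0.37 for Col12a1, each with an adjusted p of 1.

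Mmp3 varied widely among female respiratory arrays. Its signals were 206, 745, 58.6, 15.6, 3351 and 7520 in female rats 3, 4, 6, 7, 8 and 9, against 534, 1744, 2679, 2794, 3462 and 2687 in male rats 1, 2, 3, 4, 7 and 8. The signals of female rats 6 and 7 were inside the male olfactory range of 8.89 to 80.6, and that of female rat 9 was above the highest male. In the female olfactory arrays Mmp3 was 25.8 and 17.9, both at background, and the tissue difference did not pass in females (change -3.63, SE 1.30, adjusted p = 0.0558). Mmp12 had a similar spread, with 477, 734, 254, 288, 13294 and 3710 in the same female rats. The array with 13294, of rat 8, is one of those that stand apart. These females were aged 11 weeks (rat 3), 13 weeks (rats 4, 6 and 7) and 14 weeks (rats 8 and 9). The part of age in the spread of Mmp3 and Mmp12 was not tested.

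**Figure D5:**
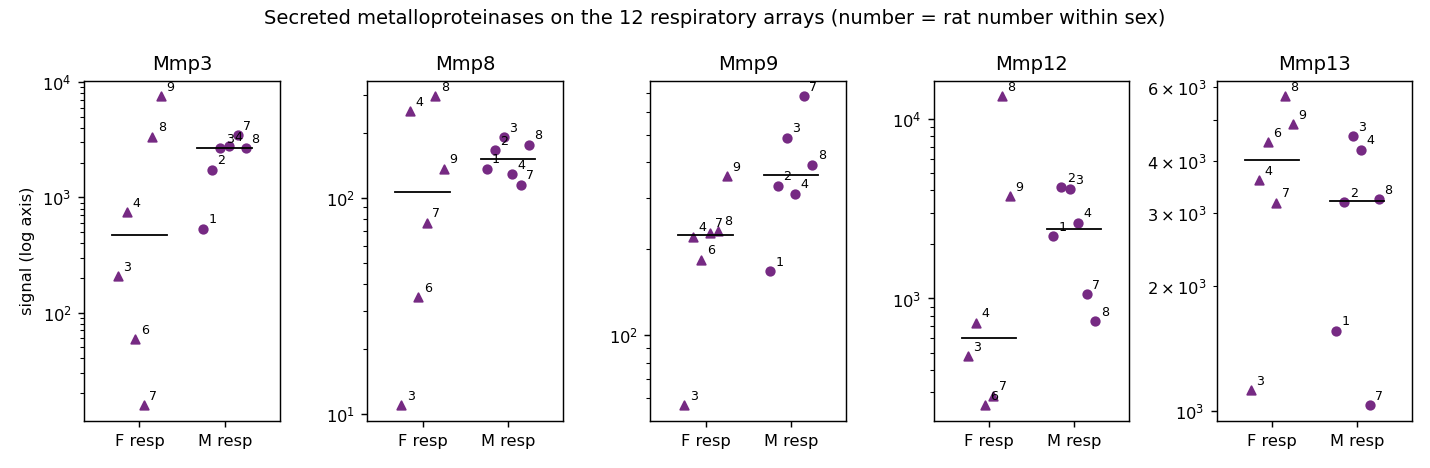
Signal (log axis, own scale per panel) of 5 secreted metalloproteinases on the 6 female (F, triangles) and 6 male (M, circles) respiratory arrays, numbered by rat within sex, with the group median as a line. Mmp3 spans 15.6 to 7520 in females and 534 to 3462 in males; Mmp12 reaches 13294 in female rat 8.

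Across the 12 respiratory arrays, 1 per rat, Col1a2 was set against Col3a1, Col4a1, the fibroblast proteoglycan gene Dcn and the neuronal gene Omp, and Mmp9 against the leukocyte gene Ptprc. None of these 5 relations passed in a permutation test after Benjamini-Hochberg adjustment. Col1a2 and Col3a1 had the highest correlation, with Pearson's r of 0.63 (permutation p = 0.031, adjusted p = 0.155) and Spearman's rho of 0.69 (permutation p = 0.0152, adjusted p = 0.0758). Without the 2 arrays farthest from the median in Col1a2, r was 0.59, and it was 0.71 over the 6 females and 0.35 over the 6 males. Mmp9 and Ptprc had r of 0.28 (permutation p = 0.376, adjusted p = 0.47) and rho of 0.43 (permutation p = 0.168, adjusted p = 0.21). Without the 2 arrays farthest from the median in Mmp9, male rat 7 and female rat 3, r was 0.74, and it was 0.49 over the 6 females and -0.02 over the 6 males.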

How the data were processed

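Total RNA, extracted with Trizol and a Qiagen kit per the labels' protocols, was put on Affymetrix rat 230 2.0 arrays. The authors deposited intensity values, 1 signal per probe set and array, and the submitters' processing notes name GCOS 1.0; its algorithm and scaling target were not stated. The mean signal after trimming 2% at each end was 500.1 to 500.3 on every array. Of 31099 probe sets 57 controls were left out. The platform annotation gave 1 gene symbol for 20826 probe sets, several for 436 and none for 9780. No pair of arrays held identical values. The number of arrays limits the precision.

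Groups follow the sex and tissue in the labels. limma 3.58.1 in R 4.3.3 fitted 4 group means to log2(signal + 16) over 20 arrays, with variances following intensity. Tests were two-sided. Correlations used 100000 permutations (SciPy). Arrays with the same sex and number were read as 1 rat from the labels; deviations from the group means correlated by -0.184 to 0.246 within rats, and the consensus correlation was 0.039. Where a whole group was at background a bound is given: the bright group's mean against, per array, the higher of the dim value and the background level, both after adding 16. Of 27 members with several probe sets, 8 had unlike calls and 0 opposite calls. Promoter sequences are RefSeq's (GRCr8). The series text names 9 rats per sex where these arrays come from 13 in all.

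The members, role classes, companion lists, markers and rules for naming genes were chosen with earlier results of these data known. Values per array were given for up to 12 members per direction with the largest change among those called in males and not overlapping, and for the brightest member of each role class; other members were named by class. Of each companion list the 3 called genes with the largest change were named. The fit was tested on simulated data. Alternatives were the pseudocount, normalization, centring, a filter on dim probe sets, the variance prior, the probe sets per gene, the animal as a block, the RNA integrity number, age, and leaving out arrays.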

Additional observations from a re-analysis of the deposited data

Results flagged for a closer look

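Values that lay far from the others of their group were sought with Dixon's gap test at its 95% limit, in 3 groups of 6 arrays for 41 members, which makes 123 groups. The test marked 10, and chance marks about 1 group in 20. In male respiratory rat 7, an array that stands apart, Col8a2 was 1989 (others 654 to 845), Loxl1 1698 (others 542 to 693) and Timp2 13584 (others 6193 to 8039). In male respiratory rat 1, Mmp3 was 534 (others 1744 to 3462) and Col15a1 297 (others 466 to 533). In female respiratory rat 3, Mmp13 was 1122 (others 3171 to 5702) and Loxl2 9.65 (others 49.9 to 81.6), and in female respiratory rat 9 Mmp15 was 507 (others 776 to 857). Among male olfactory arrays, Col6a6 was 76.2 in rat 10 (others 37.8 to 48.3) and Timp4 was 1080 in rat 7 (others 445 to 560).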

How the results depend on the processing

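In males 32 members were called. The count was 26 to 33 when each array was left out in turn, with 25 to 30 of the 32 among them, 27 to 34 under the other alternatives on processing, block, age and arrays, with 26 to 32 of the 32, and 12 once the integrity number was a covariate, all among the 32. Under this covariate the count also moved in females, to 1, against 19 (22 over the arrays with a number, without the covariate, a setting chosen after seeing the data), and in the lists of collagen making to 1 against 8, other basement membrane to 1 against 6, receptors and anchors to 5 against 9 and protease regulators to 7 against 11. The number differs between the tissues without overlap within both males and females, so tissue and RNA integrity cannot be told apart in either sex, and the cause was not tested. In females 7 to 21 members were called without 1 array. The random replicate block gave 33 members in males and 20 in females, and the fixed replicate block 34 in males, with 30 of the 32, and 1 in females, where it leaves 2 pairs; it is the one alternative besides the covariate under which more than 12 of the 19 female calls were lost. Members that did not pass turned sign: Col8a2 was -0.64 with the covariate, -0.20 with the fixed replicate block and -0.33 in males of 11 weeks, Loxl1 -0.90, -0.12 and -0.34, and Mmp15 -0.09, 0.00 and -0.31, against main changes of 0.03, 0.08 and 0.23; without 1 array Col8a2 was -0.17 to 0.25 and Loxl1 -0.11 to 0.32. The sex comparisons gave 0 members under every alternative run. After quantile normalization 1 of the 5 relations passed, against 0, an alternative chosen after seeing the data; the cause was not tested. Members at background on whole groups, such as Col4a4 and Mmp10, limit what these arrays can show.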
